A study of Mus musculus with 8 samples.

Results

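The immediate early genes considered here were 10 transcription factor and regulator genes, Fos, Fosb, Fosl2, Jun, Junb, Jund, Egr1, Atf3, Ier2 and Klf4, measured in cardiac mesenchymal stromal cells (cMSCs) of aged and young mice. Their members were chosen by name: every non-control probe of the arrays whose gene name was one of these 10 was taken, which gave 16 of the 56605 distinct probes and 10 of the 37325 genes on the array. All 16 probes, and so all 10 genes, were well above background on all 8 arrays, whereas 20226 genes in all passed the filter on dim probes. By the positions in the scanner files (build mm9, start and end as given there), the probe that stood for each gene, its brightest, lay at chr12:86818118-86818177 (+ strand, Fos), chr7:19888168-19888227 (- strand, Fosb), chr5:32460076-32460135 (+ strand, Fosl2), chr4:94716928-94716987 (- strand, Jun), chr8:87500843-87500902 (- strand, Junb), chr8:73224302-73224361 (+ strand, Jund), chr1:192994547-192994606 (- strand, Atf3), chr8:87185211-87185245 (- strand, Ier2) and chr4:55540833-55540892 (- strand, Klf4), and that of Egr1 on chromosome 18. Each was designed on the RefSeq transcript of its gene. The samples were 4 pools of aged cMSCs (20 months, pools 1, 2, 3 and 4) and 4 pools of young cMSCs (5 months, pools 2, 3, 4 and 5), each pool from the hearts of 3 male C57BL/6 mice according to the methods. The labels name no transgene and no treatment. For its aging study the paper also lists heterozygous Cx3cr1 reporter mice on C57BL/6, and its animal methods do not state which experiments used them. The ventricles were digested with enzymes, and live cells positive for Sca-1 and CD140a and negative for CD31 and CD45 were sorted, lysed and frozen without culture, so that the values describe native cells at the end of digestion and sorting. The title of aged pool 4 ends in a shorter mouse code than the titles of the other pools, and whether that pool held fewer mice was not stated. Replicates were pools of different animals, and p-values measure the spread between these pools.

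Immediate early genes are transcribed within minutes of a stimulus, such as a growth factor, a cytokine or cell stress, without any need for new protein. Fos and Jun proteins pair through leucine zippers to form the transcription factor AP-1, which binds DNA at the sequence TGANTCA, and ATF proteins pair with Jun proteins and bind the related sequence TGACGTCA. In stromal cells and fibroblasts these genes are known to respond to serum, wounding and inflammatory signals, and most of their transcripts are short-lived.

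The start regions of the members were searched for short sequence elements that stimulus-responsive and general factors are known to bind, and no element searched lay in all of them. RefSeq promoter windows (build GRCm38.p6, 250 bases before to 50 bases after the start site) were at hand for 8 of the 10 members, namely Fos, Fosb, Fosl2, Jun, Junb, Jund, Atf3 and Klf4. Neither the full element TGACGTCA, nor TGANTCA, nor a CArG box (the site of serum response factor) was found on either strand of these 8 windows, against 1.79%, 7.81% and 1.63% of all 32851 windows. Sites more than 250 bases before the start site, and the start regions of Egr1 and Ier2, were not searched. The GC box GGGCGG lay in 6 of the 8 (all but Junb and Jund), against 35.7% of all windows, and the letters TATAAA lay in Fos and Junb, against 13.6% of all windows. In Fos they lay 33 bases before the start site, where a TATA box is known to sit, whereas in Junb they began at the start site itself, so that Fos was the only member with these letters in the 120 bases before the start site (6.34% of all windows). TGACG, the first letters of TGACGTCA and chosen after the windows had been looked at, lay in 5 of the 8 (Fos, Fosb, Junb, Atf3 and Klf4), against 20.8% of all windows. TGACATCA, a variant of the AP-1 element that is known from the Jun promoter and was likewise chosen afterwards, lay in Jun alone among the members, against 3.62% of all windows. A match is a description of these letters and not a measured binding site. The 120 bases that end just before the start site are shown 5′ to 3′ on the strand of the gene for the members with a match of TGACG or TGACATCA in that stretch, with the match on either strand in capitals, and for Fosl2 and Jund, which had the lowest Pearson r with the other members over the pools. They lie at chr12:85473770-85473889 (+ strand, Fos), chr7:19310046-19310165 (- strand, Fosb), chr8:84978749-84978868 (- strand, Junb), chr1:191183334-191183453 (- strand, Atf3), chr4:95052223-95052342 (- strand, Jun), chr5:32136352-32136471 (+ strand, Fosl2) and chr8:70697619-70697738 (+ strand, Jund).
Fos: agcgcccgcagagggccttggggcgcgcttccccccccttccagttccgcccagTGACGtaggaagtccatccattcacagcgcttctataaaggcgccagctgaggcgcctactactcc
Fosb: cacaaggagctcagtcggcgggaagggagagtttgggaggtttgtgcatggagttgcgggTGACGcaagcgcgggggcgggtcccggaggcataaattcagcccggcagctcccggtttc
Junb: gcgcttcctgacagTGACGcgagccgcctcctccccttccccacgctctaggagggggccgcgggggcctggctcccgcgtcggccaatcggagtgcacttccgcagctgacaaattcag
Atf3: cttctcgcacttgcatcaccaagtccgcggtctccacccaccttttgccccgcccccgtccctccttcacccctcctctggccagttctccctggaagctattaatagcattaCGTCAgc
Jun: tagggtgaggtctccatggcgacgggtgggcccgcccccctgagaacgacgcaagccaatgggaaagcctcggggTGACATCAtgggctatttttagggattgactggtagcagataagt
Fosl2: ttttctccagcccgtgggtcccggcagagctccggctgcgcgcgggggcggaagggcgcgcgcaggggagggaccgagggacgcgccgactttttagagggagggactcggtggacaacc
Jund: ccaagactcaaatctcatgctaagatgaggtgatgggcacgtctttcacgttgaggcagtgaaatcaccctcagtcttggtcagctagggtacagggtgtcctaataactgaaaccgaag
Fos carried a second TGACG further out, 129 bases before the start site, and that of Klf4 lay 232 bases before it.

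The arrays were Agilent 1-colour arrays on 2 rows of 1 slide, and each value below is a log2 processed signal minus the 75th percentile of its array, so that 0 is the level of that percentile. The 75th percentiles ranged from 501 to 778 signal units in aged pools and from 472 to 801 in young pools, 57.8% to 63.4% of spots were well above background, and no spot was saturated. Each slide row held 2 aged and 2 young pools. Over all 20226 genes, limma called 657 genes at an adjusted p under 0.05 (Benjamini-Hochberg over all genes), of which 497 rose and 160 fell in aged cMSCs. The markers of the sorted cells (Ly6a, which encodes Sca-1, and Pdgfra, which encodes CD140a, among 10) were all measured, and of 8 markers each of endothelial and of mural cells 0 passed the test (1 and 3 had an unadjusted p under 0.05 in limma). Of 6 neutrophil markers measured 3 rose in aged cMSCs (S100a9, Ly6g and Camp), and of 9 cardiomyocyte markers measured 2 fell (Pln and Tnni3). In a sorted bulk sample, fewer cells of a type and less RNA per cell cannot be told apart.

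None of the 10 immediate early genes passed the test between aged and young cMSCs. At an adjusted p under 0.05, 0 of 10 rose, against 2.46% of all genes, and 0 of 10 fell, against 0.791% of all genes (3.25% were called in either direction). At an unadjusted p under 0.05, limma likewise had 0 of 10, against 14.1% of all genes. The adjusted p ran from 0.514 (Fosl2) to 0.998 (Atf3). The aged and the young pools overlapped for all 10 genes, whereas the 2 groups were separate for 10.7% of all genes. The mean was higher in aged cMSCs for 8 genes and lower for Jun and Klf4, but the sign turned with quantile normalisation for Fos and Atf3. With median scaling all 10 members and the median over all genes moved alike by -0.05, so that Fos, Atf3 and Ier2 had a lower mean in aged cMSCs with no change relative to other genes. The median log2 fold change of the members was 0.05, against 0.01 over all genes, and without aged pool 4 it was -0.09. The intervals bound what these 8 pools could miss: the 95% interval of the aged over young ratio reached from 0.527-fold to 1.92-fold for Atf3, the widest of the members, and from 0.919-fold to 1.19-fold for Jund, the narrowest. The smallest p that an exact permutation of 4 against 4 pools can give is 0.029.

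**Figure D1:**
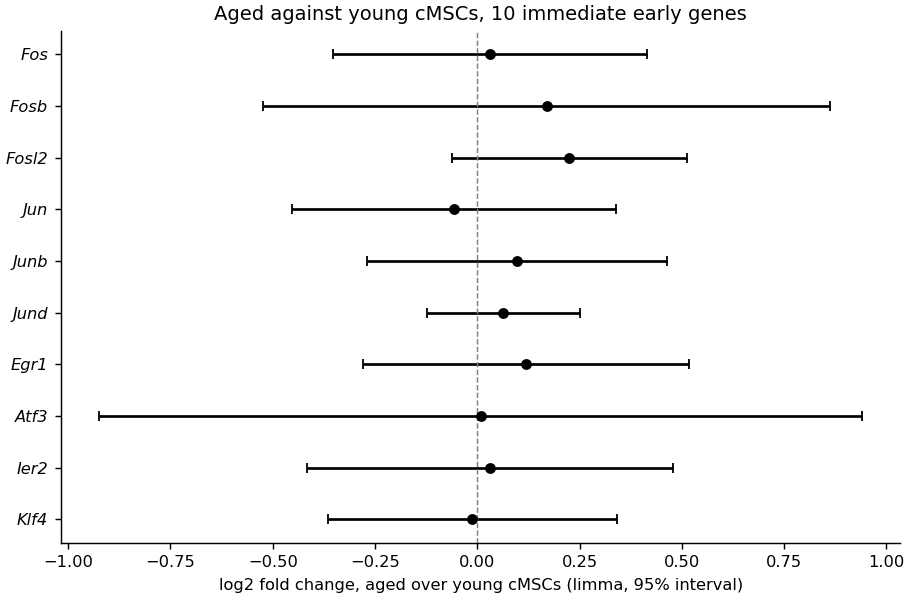
Log2 fold change of aged over young cMSCs for the 10 immediate early genes; points are limma estimates and bars their 95% intervals (n = 4 pools each). Every interval spans 0, and the widest belongs to Atf3 and the narrowest to Jund.

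Fos encodes the founding Fos subunit of AP-1. Its level was 7.80, 7.62, 7.97 and 8.36 in aged pools 1 to 4, against 7.99, 8.11, 7.65 and 7.87 in young pools 2 to 5. The highest and the lowest of the 8 values were both from aged mice (pools 4 and 2), a range of 1.67-fold. Fos averaged 7.94 ± 0.32 in aged cMSCs and 7.91 ± 0.20 in young cMSCs (SD, n = 4 each), a log2 fold change of 0.03 with a standard error of 0.17 (limma adjusted p = 0.971).

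Fosb, a second Fos subunit, had 6.25, 6.23, 6.90 and 7.43 in aged pools 1 to 4, against 6.73, 7.02, 6.20 and 6.18 in young pools 2 to 5. In either age group 2 pools were high and 2 were low, with a gap between them, and the 8 pools spanned 2.38-fold. Its log2 fold change was 0.17 with a standard error of 0.30 (adjusted p = 0.899). A second Fosb probe, 1978 bases away on the same transcript, followed the first with r = 0.94 over the 8 pools.

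Fosl2 encodes Fra-2, a Fos family protein that lacks the strong activation domain of Fos. It had 3.16, 3.30, 3.52 and 3.64 in aged pools 1 to 4, against 3.08, 3.27, 3.34 and 3.03 in young pools 2 to 5. Aged pools 3 and 4 lay above all young pools, and aged pools 1 and 2 lay within the young range. Its log2 fold change of 0.23 with a standard error of 0.13 was the largest of the members and did not pass the test (adjusted p = 0.514). The second Fosl2 probe, 4988 bases away and among the dim ones, followed the first only weakly (r = 0.39 over 8 pools).

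Jun, the founding Jun subunit and a usual partner of Fos, had 8.12, 7.99, 8.40 and 8.57 in aged pools 1 to 4, against 8.42, 8.69, 8.07 and 8.13 in young pools 2 to 5. Young pool 3 was the highest and aged pool 4 the second highest. Jun averaged 8.27 ± 0.26 in aged cMSCs and 8.33 ± 0.29 in young cMSCs (log2 fold change -0.06, standard error 0.17, adjusted p = 0.944).

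Junb, a Jun family member that can hold back the activity of Jun, had 8.18, 8.06, 8.32 and 8.75 in aged pools 1 to 4, against 8.33, 8.44, 8.03 and 8.12 in young pools 2 to 5. Only aged pool 4 lay outside the young range on the upper side, and no pool lay below it. The log2 fold change was 0.10 with a standard error of 0.16 (adjusted p = 0.889). Of the other 2 probes listed under Junb, the one on the same transcript followed the first probe (r = 0.89 over 8 pools), and a dim one designed on the clone sequence AK044253 did not (r = 0.06).

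Jund, the Jun family member known to be expressed at a steady level in resting cells, varied least. It had 7.36, 7.34, 7.42 and 7.38 in aged pools 1 to 4, against 7.38, 7.45, 7.19 and 7.23 in young pools 2 to 5, and the 8 pools spanned 1.20-fold. The 4 aged values lay within the span of the young ones. Its standard deviation within groups was 0.09, lower than that of most genes (percentile 11.9 of all genes tested).

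Egr1, a zinc finger factor that is a standard readout of serum response factor activity, had 7.20, 7.09, 7.55 and 7.89 in aged pools 1 to 4, against 7.42, 7.46, 7.16 and 7.22 in young pools 2 to 5. The young pools lay close together and the aged pools spread to both sides, with a standard deviation of 0.36 in aged cMSCs and 0.14 in young cMSCs. The log2 fold change was 0.12 with a standard error of 0.17 (adjusted p = 0.869).

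Klf4, a zinc finger factor of the Krüppel-like family known from stem cells and vascular cells, had 7.58, 7.59, 8.03 and 8.08 in aged pools 1 to 4, against 7.95, 8.07, 7.67 and 7.65 in young pools 2 to 5. Each age group again split into 2 high and 2 low pools. The group means were 7.82 ± 0.27 in aged cMSCs and 7.83 ± 0.21 in young cMSCs, a log2 fold change of -0.01 with a standard error of 0.15 (adjusted p = 0.990).

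Atf3, a stress-induced factor of the ATF/CREB family, varied most. It had 3.52, 3.65, 4.33 and 5.36 in aged pools 1 to 4, against 4.32, 4.78, 4.04 and 3.68 in young pools 2 to 5. Aged pool 4 was 3.60-fold above aged pool 1, the lowest of all 8 pools, and the standard deviation within groups, 0.68, was at percentile 98.2 of all genes tested. The group means were close, 4.21 ± 0.85 in aged cMSCs and 4.21 ± 0.47 in young cMSCs (log2 fold change 0.01, standard error 0.41, adjusted p = 0.998).

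Ier2, a small nuclear protein named for its immediate early response, had 4.04, 3.88, 4.22 and 4.74 in aged pools 1 to 4, against 4.32, 4.41, 3.87 and 4.16 in young pools 2 to 5. The order of the pools was almost that of Fos. The log2 fold change was 0.03 with a standard error of 0.20 (adjusted p = 0.976). The other probe listed under Ier2, designed on the clone sequence AK032692 and 1588 bases away on the mm9 genome (chr8:87183623-87183681, - strand), was the only 1 of the 16 probes with separate groups: 2.93, 2.87, 2.97 and 3.16 in aged pools 1 to 4, against 2.72, 2.82, 2.76 and 2.69 in young pools 2 to 5. Its log2 fold change of 0.24 with a standard error of 0.09 did not pass the test over 30824 probes (limma adjusted p = 0.258), and groups were separate for 10.1% of all probes. By the same fit 0 of the 16 probes were called, against 2.53% of all probes, and the AK032692 probe was the only 1 with an unadjusted p under 0.05.

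**Figure D2:**
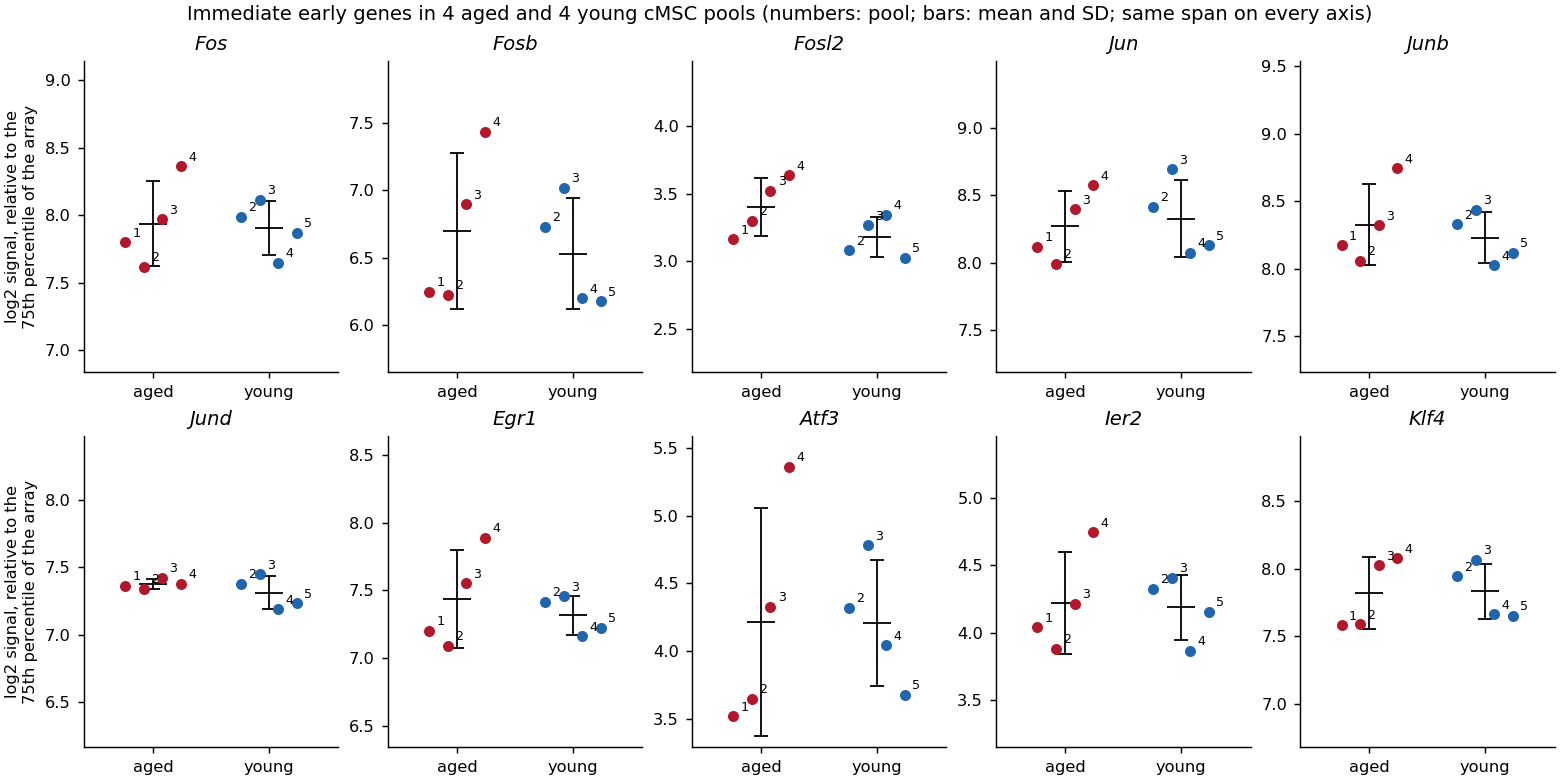
Log2 signal minus the array's 75th percentile for the 10 immediate early genes, 1 panel per gene with the same span on every axis; points are pools with their numbers, and black bars the mean and SD (n = 4 pools each). Aged pool 4 was the highest pool for 8 of the 10 genes, and aged pools 1 and 2 were low together with young pools 4 and 5 in most panels.

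For 9 of the 10 genes, Fosl2 being the exception, the difference between the ages was smaller than the standard deviation between pools of 1 age. Aged pool 4 was the highest of the 8 pools for 8 of the 10 genes, against 19.0% of all genes, and young pool 3 was the highest for Jun and Jund. Averaged over the members after centring each gene on its mean, aged pools 1 to 4 stood at -0.22, -0.26, 0.13 and 0.48, and young pools 2 to 5 at 0.06, 0.23, -0.21 and -0.21. Both ages thus held pools on either side of 0, and the pool mean spanned more in aged cMSCs. The standard deviation within groups had a median of 0.27 over the members, against 0.17 over all genes, and 9 of the 10 lay above the median of all genes.

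The 10 genes covaried over the pools. All 45 pairs had a positive Pearson r across the 8 pools, with a median of 0.87 and a range of 0.31 to 0.99. The points of each pair share the array, its scaling factor and the slide row, and the genes had been chosen as a family. By an exact permutation test over all pairings of the 8 pools (two-sided, Benjamini-Hochberg over the 45 pairs), 28 pairs had an adjusted p under 0.05. These were the 28 pairs that involve neither Fosl2 nor Jund, with r of 0.82 to 0.99, and the other 17 pairs had r of 0.31 to 0.71. By Spearman's rho with the same exact test, 34 pairs had an adjusted p under 0.05, the same 28 and 6 of the 8 pairs of Jund with these genes (rho of 0.76 to 0.90, adjusted p of 0.019 to 0.049). None of the 9 pairs with Fosl2 passed by either measure (rho of 0.07 to 0.52).

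Fos and Ier2 were the closest pair (r = 0.99, exact p = 4.96e-05, adjusted p = 0.00223), and Spearman's rho was 0.98 (exact p = 0.000397, adjusted p = 0.00446). Without aged pools 4 and 2, the pools farthest from the median of Fos, r was 0.99. Fos and Junb followed with r = 0.97 (exact p = 0.000174, adjusted p = 0.00251), and r was 0.96 without the same 2 pools. Atf3 and Klf4 placed the 8 pools in an identical order (rho = 1, r = 0.90, exact p of r = 0.000223, adjusted p = 0.00251). Fosl2 and Jund, the least alike, had r = 0.31 (exact p = 0.466), and no test was made of whether their r differed from that of the other pairs.

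**Figure D3:**
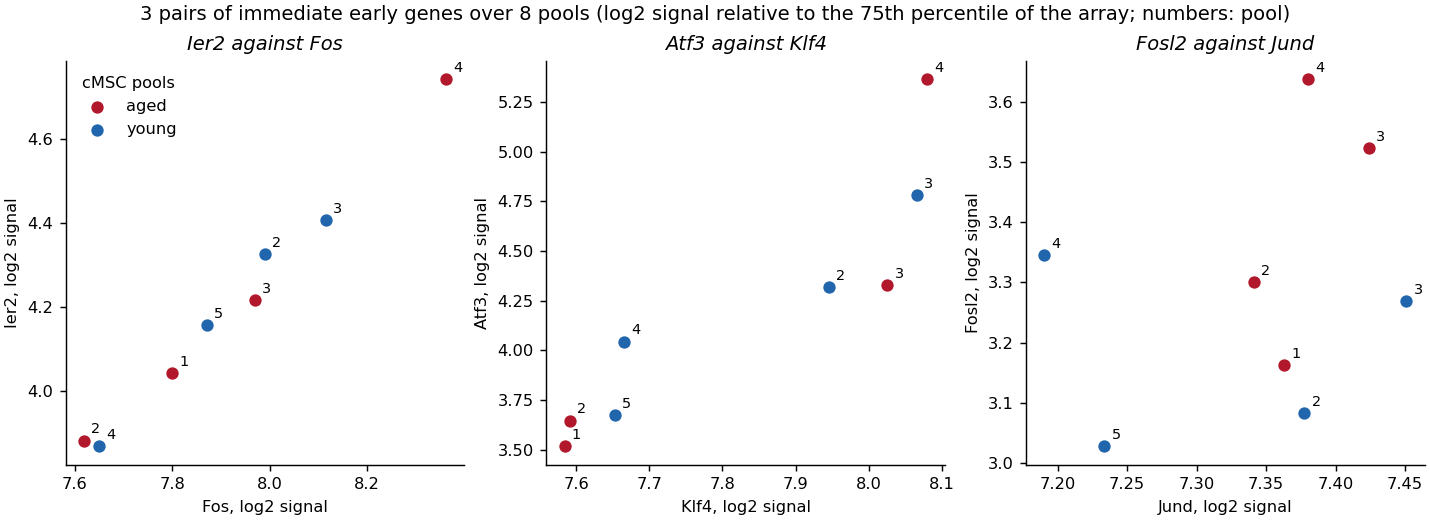
Log2 signal of Ier2 against Fos, Atf3 against Klf4 and Fosl2 against Jund in 8 cMSC pools, aged and young in separate colours with pool numbers. The first 2 pairs rise together across both ages (r = 0.99 and 0.90), and the third pair is scattered (r = 0.31).

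The covariation was present within ages and within slide rows, and for the 28 pairs without Fosl2 and Jund it did not rest on aged pool 4 alone. The median r of the 45 pairs was 0.88 after the mean of each age group was subtracted, 0.89 after the mean of each slide row was subtracted, and 0.84 without aged pool 4. Without that pool 43 of the 45 pairs were positive, and the 28 pairs had a median of 0.91 and a lowest r of 0.73. The 17 pairs with Fosl2 or Jund had a median of 0.35 without it (-0.19 to 0.84), against 0.57 with all pools. Without the 2 pools farthest from the median of the gene on the x axis, the 28 pairs among Fos, Fosb, Jun, Junb, Egr1, Atf3, Ier2 and Klf4 kept r of 0.70 to 0.99, whereas 11 of the other 17 pairs fell below 0.5. These sets of pairs were told apart by their r over the same pools, so that the contrast between them is not independent of it. Scaling mattered for both sets of pairs. With quantile normalisation the median r of those 17 pairs was 0.29, with 40 of all 45 pairs positive, and the 28 pairs had a median of 0.84 and a lowest r of 0.55. Pairs with r of at least 0.8 numbered 28 with the scaling used here, against 18 with quantile normalisation and 18 in the authors' log2 table, where the lowest r of the 28 pairs was 0.57. The 75th percentile, the scaling factor, was 501 and 478 in aged pool 4 and young pool 3, the pools with the highest member means, but 472 in young pool 5, where the member mean was low, and 778 and 801 in aged pool 2 and young pool 4, which were low as well; its part in the covariation was not tested.

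**Figure D4:**
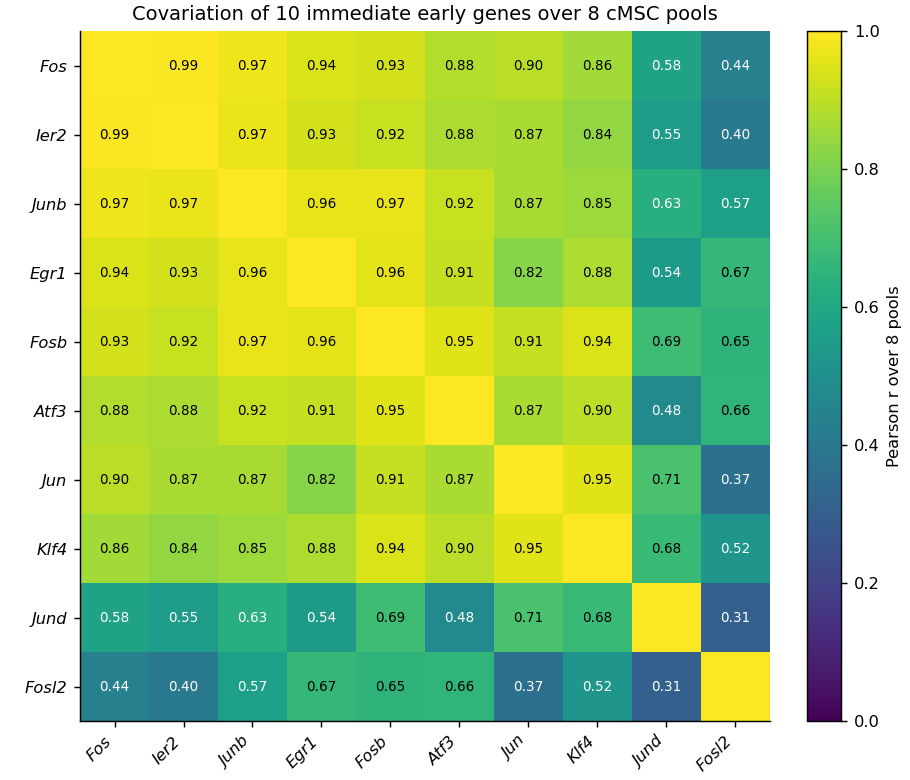
Pearson r over 8 pools for each pair of the 10 immediate early genes (scale from 0 to 1). The 8 genes listed first form a block with r of 0.82 to 0.99, and the rows of Jund and Fosl2 have lower values.

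Each member was also set against the mean of the other 9, and its place found among the 20205 genes with complete values, the other members left out. Fosb ranked 1 (r = 0.99), Junb 3, Egr1 8, Fos 20, Atf3 24, Klf4 51, Ier2 53 and Jun 95. Jund and Fosl2 ranked 2402 and 2859, with r of 0.61 and 0.58. These ranks describe 8 pools, and genes are not independent of each other.

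The genes outside the family whose levels were most like the member mean over the 8 pools were Gem (r = 0.97), Zfp36 (0.97), Tpm3 (0.97), Csrnp1 (0.96), Cacna2d2 (0.96), Fbxo30 (0.96), Olfr279 (0.95), Irf1 (0.95), Sertad1 (0.94) and Gdap10 (0.94). Gem is a small GTPase, Zfp36 encodes tristetraprolin, which speeds the decay of short-lived mRNAs, Tpm3 is a tropomyosin, and Irf1 is a transcription factor of the interferon response. Zfp36 had 5.46, 5.60, 6.02 and 6.76 in aged pools 1 to 4, against 5.88, 6.07, 5.36 and 5.46 in young pools 2 to 5, with aged pool 4 on top and the ages overlapping. After the age means were subtracted, the 10 highest were Zfp36, Tpm3, Camp, Phka2, Gem, Hcrt, Klf9, Zc3h12a, Pabpc1 and Socs3, with r of 0.96 to 0.98. Pld6, Irs2, Prr30, Gdap10 and 2010310C07Rik were most like Fos (r of 0.96 to 0.97), and Fzd5, Gdap10, Spint1, Tpm3 and Gem most like Egr1 (r of 0.96 to 0.98). Several of these genes were dim, and low signal bears on their r. Over the 8 pools Hcrt ranged from -5.12 to -4.16, Pld6 from -5.06 to -3.93 and Spint1 from -4.55 to -3.89. Fzd5 and 2010310C07Rik were dim as well.

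Other genes known as immediate early genes often followed a like pool pattern, and none was called between the ages in the fit used here. Of 26 such genes measured (among them Nr4a1, Myc, Klf6, Btg2 and Csrnp1), 0 were called in either direction, 17 had a higher and 9 a lower mean in aged cMSCs, and the median log2 fold change was 0.10; 1 gene had an unadjusted p under 0.05 in limma. Under 1 of the 21 alternatives, limma with a trended and robust prior, 1 gene rose, Ccn2 (adjusted p = 0.024). The largest differences were those of Nr4a3 (-0.52, adjusted p = 0.389, and -0.32 without young pool 5) and Ier3 (0.51, adjusted p = 0.537, and 0.23 without aged pool 4). The median r with the member mean was 0.81, and 14 of the 26 had r of at least 0.8, against 2.85% of all genes. Aged pool 4 was highest for 18 of the 26, against 19.0% of all genes. Nr4a1, an orphan nuclear receptor, had 6.83, 7.20, 7.24 and 8.20 in aged pools 1 to 4, against 7.74, 7.84, 7.25 and 7.43 in young pools 2 to 5. Aged pool 4 was the highest, aged pools 1 and 2 were the lowest, and aged pool 3 was level with young pool 4. Its log2 fold change was -0.20 (limma adjusted p = 0.867). Plk2 ran the other way, with r = -0.54 and its lowest level in aged pool 4.

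The feedback inhibitors of these pathways, which include MAP kinase phosphatases, Sprouty proteins, tristetraprolin and the NF-κB inhibitors, had no call either. Of 17 measured, 0 were called, the median log2 fold change was 0.20, and 3 had an unadjusted p under 0.05 in limma. Tnfaip3 (A20) had the largest difference, 0.61 with an adjusted p of 0.216, followed by Dusp4 (0.44, adjusted p = 0.066). The median r with the member mean was 0.63, and 11 of the 17 were highest in aged pool 4, against 19.0% of all genes. Dusp1, the phosphatase that switches off p38 and JNK, had 6.36, 6.21, 6.71 and 7.11 in aged pools 1 to 4, against 6.89, 6.69, 6.52 and 6.41 in young pools 2 to 5, with r = 0.91 and no difference in mean beyond its error (log2 fold change -0.03). Nfkbia (IκBα, r = 0.94) and Nfkbiz (r = 0.93) were likewise highest in aged pool 4.

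**Figure D5:**
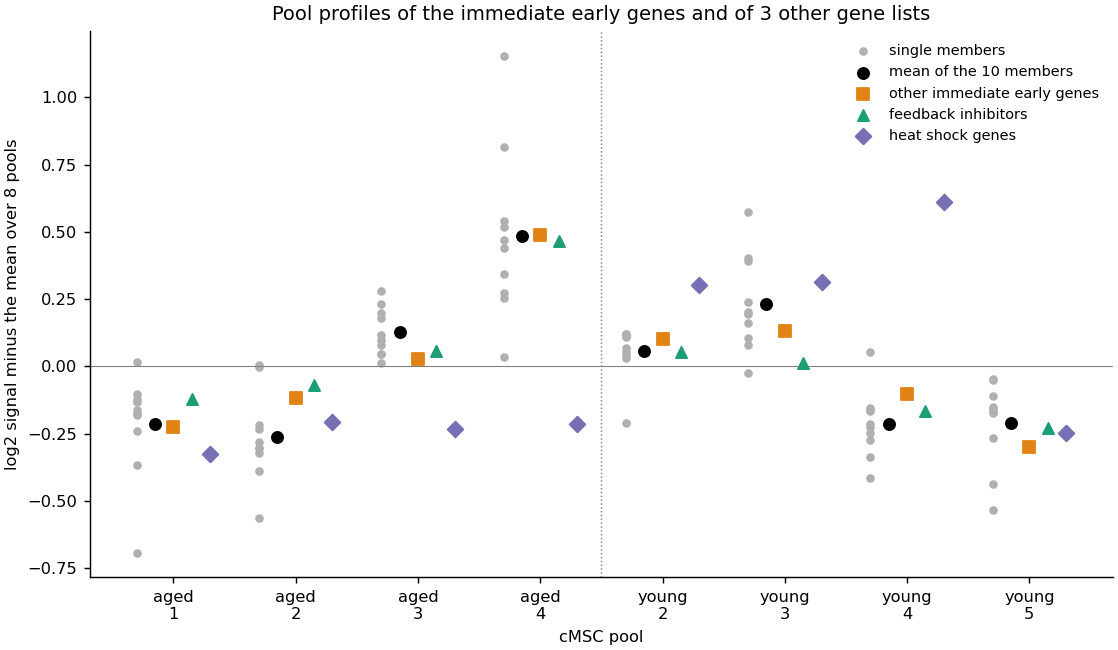
Log2 signal minus the mean over 8 pools, per cMSC pool, for each of the 10 members (grey) and as the mean of the 10 members, of 26 other immediate early genes, of 17 feedback inhibitors and of 14 heat shock genes. The first 3 means are all highest in aged pool 4 (0.46 to 0.49), and the heat shock mean is highest in young pool 4 (0.61).

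The factors and kinases upstream of the immediate early genes (serum response factor, ternary complex factors, CREB and MAP kinases) had another pool pattern. Of 21 measured, 0 were called, 1 had an unadjusted p under 0.05 in limma, the median log2 fold change was -0.04, and the median r with the member mean was -0.37. Rps6ka3 (0.57, adjusted p = 0.635) and Elk3 (0.20, adjusted p = 0.293) had the largest differences. That of Rps6ka3 rested on young pool 5, which stood at -1.25, against 0.55 to 0.82 in aged pools and 0.34 to 0.72 in the other young pools, and without it the log2 fold change was 0.12. Of 3 measured genes among the other EGR family members and the NAB corepressors, 0 were called by limma, and 0 had an unadjusted p under 0.05. Egr2 had a log2 fold change of 0.19 (adjusted p = 0.850), Nab2 of -0.16 (adjusted p = 0.741) and Egr3 of 0.08 (adjusted p = 0.889). With the member mean Egr2 had r = 0.81 and Nab2 r = -0.01. Egr3 ran the other way, with r = -0.80 and its lowest level in aged pool 4. Nab1 and Egr4 did not pass the filter on dim probes.

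Among the other AP-1 family partners, Batf3, a dim gene, fell. Of 11 measured, 1 fell and 0 rose, and the median log2 fold change was 0.03. Batf3, a BATF family partner of Jun known from dendritic cells, had -4.74, -4.25, -4.72 and -4.74 in aged pools 1 to 4, against -3.72, -3.62, -3.81 and -4.09 in young pools 2 to 5. All aged pools lay below all young pools, and the log2 fold change was -0.81 with a standard error of 0.15 (adjusted p = 0.024). Its probe was well above background in only 2 of the 4 aged pools, so that it passed the filter through the young pools, where it was higher, and with a probe required on all 8 arrays it was not tested. The size of its fold rests in part on signal near background. The call held in 2 of the 8 fits that left out 1 pool (adjusted p of 0.011 to 0.078); it was lost without aged pool 1, 3 or 4 or young pool 2, 3 or 4. With a trended and robust prior Batf3 was not called and Batf2 rose (adjusted p = 0.044).

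Of 12 measured genes known as AP-1 targets, 1 rose, Mmp3 (stromelysin), which the study names as well, so that its place on the list is not independent of these samples. Mmp3 had 5.02, 4.78, 4.90 and 5.27 in aged pools 1 to 4, against 3.93, 3.36, 3.83 and 3.65 in young pools 2 to 5. The groups were far apart, with a log2 fold change of 1.30 and a standard error of 0.15 (adjusted p = 0.00336), and it was called in 8 of the 8 fits that left out 1 pool. Timp1, an inhibitor of matrix proteases, rose as well without young pool 2 (adjusted p = 0.046) and with normexp background correction (adjusted p = 0.049). The r with the member mean was 0.19 for Mmp3 and 0.35 for Timp1. Il6 and Hbegf followed the members instead (r = 0.87 and 0.90): Il6 had 1.91, 2.53, 3.07 and 5.17 in aged pools 1 to 4, against 2.24, 2.88, 1.82 and 1.37 in young pools 2 to 5, and its log2 fold change of 1.09 did not pass the test (adjusted p = 0.553) and was 0.43 without aged pool 4. Il6 and Hbegf were chosen after their values were seen. They were the only 2 of the 12 with r of at least 0.8, against 2.85% of all genes. The median r of the list was 0.27, and Ccnd1 ran the other way (r = -0.86), with its lowest level in aged pool 4.

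Heat shock genes, a stress response run by another factor (HSF1), mostly differed from the members in pool pattern. All 14 measured had a lower mean in aged cMSCs, with a median log2 fold change of -0.43, and 9 had an unadjusted p under 0.05, but only Hsp90ab1 fell at an adjusted p under 0.05. Hsp90ab1, a cytosolic chaperone, had 7.01, 7.09, 7.02 and 6.75 in aged pools 1 to 4, against 7.47, 7.37, 7.51 and 7.30 in young pools 2 to 5 (log2 fold change -0.45, standard error 0.10, adjusted p = 0.045). That call was lost in all 8 fits that left out 1 pool (adjusted p of 0.061 to 0.121). The count of calls changed without young pool 5 and also with the processing. The centred mean of the 14 genes was -0.33, -0.21, -0.23 and -0.21 in aged pools 1 to 4, against 0.30, 0.31, 0.61 and -0.25 in young pools 2 to 5. In this mean young pool 5 stood with the aged pools. Without it 5 other heat shock genes fell (Hsp90aa1, Hspa1a, Hspa1b, Hspa8 and Hspb1), and with array weights 9 fell, Hsp90ab1 among them. With normexp background correction 2 fell, Hspa1b and Hspa8, and with quantile normalisation, median scaling or cyclic loess 0 were called by limma. The median r with the immediate early gene mean was 0.09, and 9 of the 14 were highest in young pool 4, where the immediate early genes were low, against 17.0% of all genes. Single genes had r from -0.47 (Hspd1) to 0.72 (Dnajb4), and Bag3 had r = 0.70.

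Markers of other cell types also moved with aged pool 4. The neutrophil list was highest in aged pool 4 for 5 of its 6 measured genes, against 19.0% of all genes. Its centred mean was 0.59, 0.22, 0.41 and 1.65 in aged pools 1 to 4, against -0.13, -0.86, -0.86 and -1.02 in young pools 2 to 5. Retnlg and Cxcr2 did not pass the filter. S100a9 (log2 fold change 4.33, adjusted p = 0.036), Ly6g (0.74, adjusted p = 0.038) and Camp (0.70, adjusted p = 0.033) rose in aged cMSCs. S100a9 stood at 0.40, -0.47, -0.38 and 2.39 in aged pools 1 to 4, against -1.54, -5.25, -4.27 and -4.31 in young pools 2 to 5, and was well above background in 4 of 4 aged and 3 of 4 young pools, so that it passed the filter through the aged pools and the size of its fold rests in part on signal near background. With the slide row as a block only Camp was called. Of the 8 fits that left out 1 pool, S100a9 was called only without young pool 2, Camp only without aged pool 1, 2 or 4, and Ly6g in none (adjusted p up to 0.101 for S100a9 and Ly6g and 0.0987 for Camp). The cardiomyocyte list was lowest in aged pool 4 for 8 of its 9 measured genes, with a centred mean of -0.03, 0.01, -0.17 and -0.58 in aged pools 1 to 4, against 0.20, 0.08, 0.12 and 0.37 in young pools 2 to 5, and Ryr2 did not pass the filter. The share of all genes lowest in aged pool 4 was not computed. Pln (-0.90, adjusted p = 0.045) and Tnni3 (-0.32, adjusted p = 0.047) fell. Pln was well above background in 2 of 4 aged and 4 of 4 young pools, so that it passed the filter through the young pools, where it was higher, and the same limit holds for its fold. With the slide row as a block only Pln was called. Of the 8 fits that left out 1 pool, Pln was called only without aged pool 2 or young pool 3 and Tnni3 in none, with adjusted p up to 0.124 and 0.132. Of 8 macrophage and leukocyte markers measured, Cd14 rose (0.63, adjusted p = 0.00412), the list was highest in aged pool 4 for 4 genes, and its centred mean ranged from -0.08 to 0.34 in aged and from -0.64 to 0.26 in young pools; Fcgr1 and Cd79a did not pass the filter. The median r with the member mean was 0.55 for the neutrophil, -0.60 for the cardiomyocyte and 0.60 for the macrophage and leukocyte list. Of the 8 macrophage and leukocyte markers 1 had r of at least 0.8, against 2.85% of all genes. It was Ptprc, which encodes CD45 (r = 0.81). The part of these cells in the level of the immediate early genes was not tested.

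Among the 10 cMSC markers, Ly6a (0.67, adjusted p = 0.049) and Pdpn (0.40, adjusted p = 0.031) rose and Thy1 fell (-0.71, adjusted p = 0.049). The median r of the 10 with the member mean was 0.04, but single markers ran both ways, from -0.57 (Thy1) to 0.78 (Tcf21). Ly6a had r = 0.58 and Pdpn r = -0.09. With age means subtracted, r was 0.93 for Ly6a, 0.79 for Tcf21, -0.67 for Pdpn and -0.90 for Thy1. Of the 8 fits that left out 1 pool, Ly6a was called in none, Pdpn only without young pool 5 and Thy1 only without aged pool 2 or 4, with adjusted p up to 0.128, 0.102 and 0.128. Of 8 mesothelial markers listed 4 were measured, and only Dmkn rose (3.98, adjusted p = 5.93e-05). Wt1 (0.75), Msln (-0.63) and Krt18 (-0.24) were not called (limma adjusted p of 0.417 to 0.893). Of 3 erythroid markers measured 0 passed the test in limma (0 at an unadjusted p under 0.05). The median r with the member mean was -0.13 for the mesothelial and -0.17 for the erythroid list. Endothelial and mural lists had median r of 0.12 and -0.30 with the member mean, and their largest differences were those of Vwf (0.38, adjusted p = 0.602) and Tek (-0.33, adjusted p = 0.127) and of Cnn1 (-1.03, adjusted p = 0.255) and Myh11 (-0.61, adjusted p = 0.15).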

How the data were processed

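cMSCs sorted from 4 aged and 4 young pools of hearts were measured on Agilent SurePrint 8x60K 1-colour arrays. The deposited scanner files hold intensity per spot, extracted by the authors with Agilent Feature Extraction 10.10.1.1 (background-subtracted processed signal), and the authors also deposited a table of normalised log2 values, made with limma per the labels, which served as an alternative only. Here log2 of the processed signal minus the 75th percentile of each array was used, replicate spots were averaged, and a probe was kept where every array of the aged or of the young group had it well above background (30824 of 56605). The brightest kept probe stood for a gene. Names came from RefSeq accessions for 32994 probes and from the files otherwise. limma 3.58.1 in R 4.3.3 (lmFit, eBayes) compared aged with young pools without covariates, with Benjamini-Hochberg over 20226 genes. On simulated data of 20214 genes with complete values the fit recovered 77% of the genes given a log2 change of 1 and 99% of those given 2. The number of arrays limits the precision. The members and lists were chosen with earlier results of these data known. Named were all members and probes, called genes of each list (up to 4, otherwise the 2 with the largest change), and the genes most like the member mean, Fos and Egr1. Pool numbers were not used to pair the samples. With group means subtracted, aged and young pools of the same number had correlations of 0.18, -0.17 and -0.27. These values cannot show whether pools were processed as pairs. Alternatives were scalings, background correction, filters, probe summary, blocks, weights and leaving out each pool. Protein sequences were not used here.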

Additional observations from a re-analysis of the deposited data

Results flagged for a closer look

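A dim probe listed under Junb and designed on the clone sequence AK044253 had 1 pool far from the others of its group: young pool 4 stood at -5.31, against -4.62, -4.66 and -4.58 in young pools 2, 3 and 5. It was the only 1 of 32 groups of 4 values tested (16 probes in both ages) that passed Dixon's 95% limit for 4 samples, and chance passes about 1 group in 20.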

How the results depend on the processing

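No member was called under any of the 21 alternatives run, and the lowest adjusted p of any member was 0.373. The median log2 fold change of the members moved by less than the spread between pools (between -0.09 and 0.16 when 1 pool was left out). With median scaling the 10 members and the median over all genes moved alike by -0.05, which by construction turned the sign of 3 members near 0 and left their place among all genes as it was. In the other refits the sign of single members turned in 28 of 200, none with a call, and the cause was not tested. With quantile normalisation it was -0.00803 for Fos and -0.00197 for Atf3, with median scaling -0.0183 for Fos, -0.0417 for Atf3 and -0.0180 for Ier2, with normexp background correction -0.00067 for Fos, and in the authors' log2 table -0.0123 for Fos and -0.0014 for Atf3. With array weights it was -0.0499 for Fos, -0.0393 for Fosb, -0.0093 for Junb, -0.29 for Atf3 and -0.0911 for Ier2. With the pool number as a replicate block it was 0.0065 for Klf4. When 1 pool was left out, the log2 fold change ranged from -0.11 to 0.14 for Fos, from -0.0746 to 0.33 for Fosb, from -0.16 to 0.0641 for Jun, from -0.0437 to 0.18 for Junb, from -0.0320 to 0.23 for Egr1, from -0.38 to 0.24 for Atf3, from -0.14 to 0.15 for Ier2 and from -0.10 to 0.0665 for Klf4. Without aged replicate 4 the signs of Fos, Fosb, Junb, Egr1, Atf3 and Ier2 all turned, to the lowest values given.

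The median r of the 45 pairs was 0.87. It was 0.73 with quantile normalisation, 0.79 with median scaling, 0.78 with cyclic loess, 0.75 with normexp, 0.77 in the authors' log2 table, 0.83 with the mean of all kept probes, 0.89 with slide row means subtracted and 0.81 as Spearman's rho, and from 0.84 to 0.89 when 1 pool was left out.

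Over all genes, 497 rose and 160 fell. Without the filter on dim probes, which tests 37325 genes, 202 rose and 43 fell, and with array weights 753 rose and 379 fell. Pool numbers were not taken as a design pairing, and neither were the mouse codes in the titles. The digits of those codes match between aged pool 1 and young pool 5. They also match between the ages for pools 2 and 3, and begin alike for pool 4. Whether the codes mark paired processing was not stated. With the pool number as a replicate block 14 rose and 2 fell, with the estimate resting on the 6 pools that share a number and with fewer residual degrees of freedom, and with the pool code as a replicate block 212 rose and 51 fell. Leaving out 1 pool gave 261 to 383 that rose and 67 to 154 that fell, with fewer samples in each fit, and the count moved by over 1.5 times without aged replicate 1 (321 and 84), aged replicate 3 (287 and 67), young replicate 3 (261 and 71), young replicate 4 (297 and 89), young replicate 2 (78 fell) and young replicate 5 (329 rose). Mmp3 was called in 20 of 21 alternatives, Batf3 in 8 and Hsp90ab1 in 5. Low signal bears on the dim second probe of Fosl2 and the AK044253 probe of Junb.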
